A study of Rattus norvegicus with 8 samples.

Results

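The genes described here encode the TGF-beta ligands and the receptors and co-receptors of TGF-beta and bone morphogenetic proteins (BMPs). They were the features whose platform annotation gave the symbol Tgfb1, Tgfb2, Tgfb3, Tgfbr1, Tgfbr2, Tgfbr3, Eng, Bmpr1a or Bmpr2. Of these 9 symbols 8 were measured, on 11 of 20500 features, with 4 features for Bmpr2 and 1 for each other gene. Tgfbr2, the type II TGF-beta receptor, was not analysed here. The untransfected cells, RIE, are epithelial cells of the rat intestine, and RIE-Ras cells derive from them by stable transfection with pSV2-H-Ras(12V), which encodes a constitutively active human H-Ras. On every array RNA of cells exposed for 1 hr to TGF-beta-1 at 2 ng/ml was set against RNA of control cells of the same line, with 4 arrays per line. The labels do not say whether RIE-Ras is a single clone, or whether replicates were grown separately, so the spread behind each p-value may be technical.

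TGF-beta ligands are secreted in a latent form and, once released, bind the type II receptor, which recruits and phosphorylates the type I receptor Tgfbr1. The type I receptor then phosphorylates Smad2 and Smad3, which enter the nucleus with Smad4. In the intestinal epithelium this pathway is known for arresting growth, and activated Ras is known to alter the response. Bmpr1a and Bmpr2 are type I and type II receptors of the BMP branch, which signals through other Smad proteins. Tgfbr3 (betaglycan) and Eng (endoglin) are co-receptors that bind ligand and lack a kinase.

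Values are given as log2 ratios, treated over control, after the median of each array was subtracted, so a value of 0 is the median feature. Array medians before this centring lay between 0.20 and 0.45, and precision is limited by the number of arrays. The values show change with treatment and not how abundant a transcript was, so the epithelial identity of the cells could not be checked from marker levels. As a check of the treatment, Smad7, an inhibitory Smad gene and early TGF-beta target, stood at 2.59, 1.61, 1.45 and 1.55 on the RIE arrays. It stood at 1.75, 1.24, 1.25 and 1.32 on the RIE-Ras arrays, and it passed in both lines (limma adjusted p = 0.0345 and 0.0386). No feature, Smad7 included, passed in RIE cells when RIE replicate 2 or 4 or RIE-Ras replicate 2 or 4 was left out, nor in RIE-Ras cells without RIE-Ras replicate 2 or 3. Nor did any feature pass in either line with the replicate number as a block. The same held in RIE-Ras cells with quantile normalization and with that line fitted alone. RIE-Ras replicate 1 stood apart, with a Pearson correlation between -0.11 and 0.15 with each of the other arrays across features. RIE-Ras replicate 4 was also weakly correlated with every other array, at 0.07 to 0.15. RIE replicates 3 and 4 were the most alike, with a correlation of 0.69.

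The stretches just before the annotated start of the 3 ligand genes are shown because 2 of them, Tgfb2 and Tgfb3, are the members whose responses diverged most between the lines. Each run is the 250 bases before the start, on the gene's strand, from RefSeq on build GRCr8. Capitals mark any match to 5 motifs searched on both strands, which are a Smad box (CAGAC), an E-box (CACGTG), an AP-1 site (TGACTCA), a cAMP response element (TGACGTCA) and a GC box (GGGCGG).
Tgfb1: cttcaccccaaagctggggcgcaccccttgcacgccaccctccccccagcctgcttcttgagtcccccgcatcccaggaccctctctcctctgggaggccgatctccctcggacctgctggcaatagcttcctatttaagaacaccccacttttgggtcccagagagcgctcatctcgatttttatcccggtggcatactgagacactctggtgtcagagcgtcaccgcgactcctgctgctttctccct
Tgfb2: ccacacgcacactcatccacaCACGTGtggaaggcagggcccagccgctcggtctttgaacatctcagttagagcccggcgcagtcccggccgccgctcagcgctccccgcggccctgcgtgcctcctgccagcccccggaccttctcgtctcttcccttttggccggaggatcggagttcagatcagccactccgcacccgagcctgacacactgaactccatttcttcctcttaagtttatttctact
Tgfb3: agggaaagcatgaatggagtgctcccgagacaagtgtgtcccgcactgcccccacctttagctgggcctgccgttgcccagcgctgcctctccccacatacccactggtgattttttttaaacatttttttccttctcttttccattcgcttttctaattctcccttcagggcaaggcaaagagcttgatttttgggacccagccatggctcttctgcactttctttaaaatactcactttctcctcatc

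The runs lie at chr1:90324062-90324311 on the plus strand for Tgfb1, at chr13:100792686-100792935 on the minus strand for Tgfb2 and at chr6:111456947-111457196 on the minus strand for Tgfb3. The only match among the 3 ligands was the E-box of Tgfb2, which starts at position -229 from the gene's start. An E-box was present in 5.59% of 33469 rat promoters of this length. A Smad box was present in 42.9% of them, and among the 8 member genes only Eng held one. G and C made up 60% of the run of Tgfb1, 61.6% of that of Tgfb2 and 48.8% of that of Tgfb3, against a median of 51.2% over all promoters. These matches are descriptions of the letters and not of bound sites.

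The first question was how the ligand genes themselves responded to added TGF-beta-1 in each line. In RIE cells Tgfb2 lay below the array median on every array and Tgfb1 and Tgfb3 showed no common sign. In RIE-Ras cells Tgfb3 lay above the median on every array, about a doubling relative to the median, while Tgfb2 stayed near it and Tgfb1 lay slightly below it. No ligand or receptor passed the threshold of 0.05 after Benjamini-Hochberg adjustment over all 17402 features in either line (0 of 8 genes in each, by limma), where 0.0747% of all features passed in RIE and 0.419% in RIE-Ras cells. At an unadjusted p under 0.05 these shares were 17.5% and 19.3%. With array weights 6539 of the 17402 features passed in RIE cells. Without centring 4061 passed in RIE and 3657 in RIE-Ras cells. Passes of single genes under these settings, given below, are to be read against those counts.

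Tgfb2 encodes the ligand that depends most on betaglycan for receptor binding. Its ratios were -0.57, -0.42, -0.64 and -0.90 on the 4 RIE arrays and -0.01, 0.04, 0.39 and 0.07 on the 4 RIE-Ras arrays. All RIE values were lower than every RIE-Ras value. The mean was -0.63 ± 0.20 (SD, n = 4) in RIE cells (limma adjusted p = 0.0869), a 0.645-fold ratio relative to the median feature, and 0.12 ± 0.18 in RIE-Ras cells (adjusted p = 0.599). In RIE cells Tgfb2 passed with arrays scaled to equal spread (adjusted p = 0.049), with quantile normalization (0.0405) and with array weights (0.0005), and over all alternatives its adjusted p ran up to 0.379. Under these 3 settings 87, 95 and 6539 of all features passed in RIE cells. In RIE-Ras cells the mean was 0.03 without RIE-Ras replicate 3, and Tgfb2 passed without centring (0.41, adjusted p = 0.0449). Relative to the uncentred zero, rather than the array median, its RIE mean was -0.28.

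Tgfb3 encodes the third ligand, which shares its receptors with Tgfb1. Its ratios were 0.35, -0.18, -0.28 and -1.0 on the RIE arrays and 1.27, 0.98, 0.57 and 1.18 on the RIE-Ras arrays. The RIE values scattered on both sides of 0, and every RIE-Ras value was higher than every RIE value. The RIE-Ras mean was 1.00 ± 0.31 (SD, n = 4), a 2.00-fold ratio relative to the median feature, with an adjusted p of 0.0678 by limma. It was 0.91 without RIE-Ras replicate 1, and its adjusted p lay between 0.00765 (no centring, the only alternative in which it passed) and 0.176. In RIE cells the mean was -0.28 ± 0.56, and -0.04 without RIE replicate 4, which held the lowest value, and -0.49 without RIE replicate 1. There Tgfb3 passed with array weights (-0.30, adjusted p = 0.0446), and the mean was 0.079 without centring.

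Tgfb1, the gene of the ligand that was added to the cells, is known to be induced by its own product in many cell types. Its ratios were 1.10, -0.07, -0.14 and 0.27 on the RIE arrays and -0.09, -0.16, -0.41 and -0.03 on the RIE-Ras arrays. RIE replicate 1 alone was far above the others, and all RIE-Ras values were below 0. The RIE mean of 0.29 ± 0.57 (SD, n = 4, limma adjusted p = 0.469) became 0.02 without RIE replicate 1. It was 0.65 without centring, where it passed (adjusted p = 0.0346), and -0.063 with array weights. The RIE-Ras mean was -0.17 ± 0.17 (limma adjusted p = 0.668), -0.09 without RIE-Ras replicate 3 and 0.11 without centring.

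**Figure D1:**
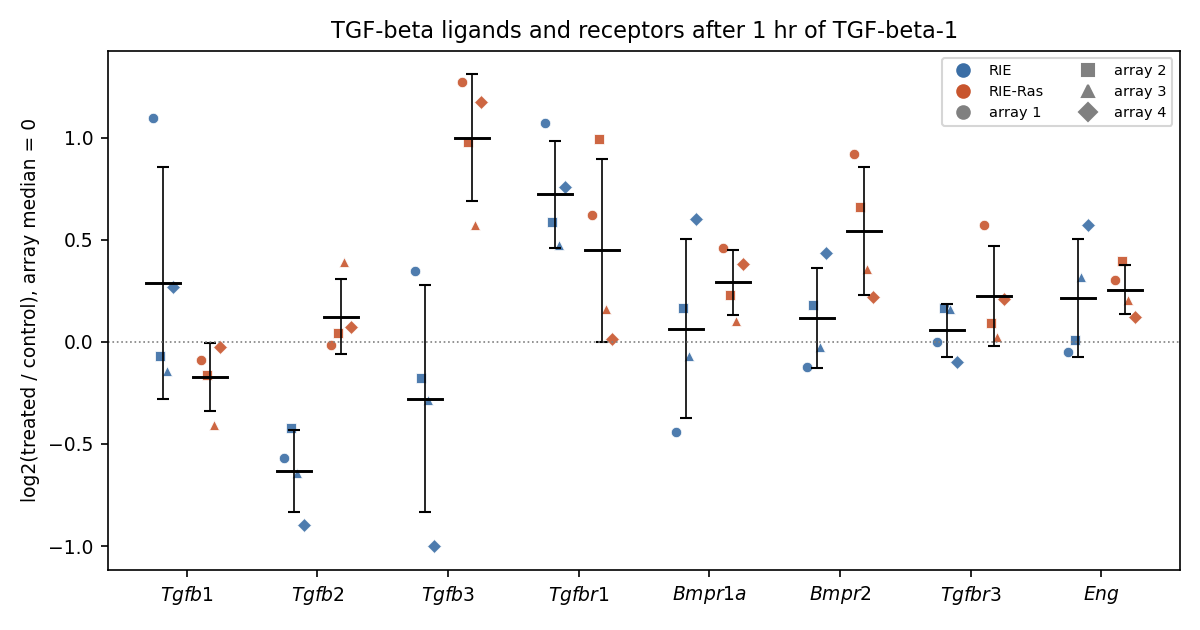
Log2 ratio of treated over control for each of the 8 genes (vertical axis, array median at 0) on the 4 RIE arrays in blue and the 4 RIE-Ras arrays in orange, with marker shape giving the array number, a horizontal bar at the mean and whiskers of 1 SD. The lines do not overlap for Tgfb2 (RIE mean -0.63, RIE-Ras mean 0.12) and Tgfb3 (-0.28 and 1.00), and overlap for the other 6 genes.

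Compared within the same array, the order of the ligands differed between the lines. Tgfb1 minus Tgfb2 was 1.67, 0.35, 0.50 and 1.17 on the RIE arrays and -0.08, -0.20, -0.80 and -0.10 on the RIE-Ras arrays. Tgfb1 minus Tgfb3 was 0.75, 0.11, 0.14 and 1.27 in RIE cells and -1.36, -1.14, -0.98 and -1.20 in RIE-Ras cells. Thus the ratio of Tgfb1 was above that of both other ligands on every RIE array and below both on every RIE-Ras array. The means of Tgfb1 minus Tgfb3 were 0.57 ± 0.55 and -1.17 ± 0.16 (SD, n = 4 each), and those of Tgfb1 minus Tgfb2 were 0.92 ± 0.61 and -0.29 ± 0.34. Tgfb2 minus Tgfb3 was below 0 on 3 of 4 RIE arrays and on all 4 RIE-Ras arrays, with means of -0.36 ± 0.42 and -0.88 ± 0.49. Single arrays weighed on 3 of these means: Tgfb1 minus Tgfb2 in RIE-Ras cells was -0.13 without RIE-Ras replicate 3, Tgfb1 minus Tgfb3 in RIE cells 0.33 without RIE replicate 4, and Tgfb2 minus Tgfb3 in RIE cells -0.17 without RIE replicate 1. Of the 28 pairs among the 8 genes these 2, Tgfb1 with Tgfb2 and with Tgfb3, were the only ones with opposite signs on all arrays of the lines. They were picked out after the values were seen, and their difference between lines was not tested. The share of such pairs among all features was not computed. Each of the 2 pairs holds Tgfb2 or Tgfb3, whose own values did not overlap between the lines. The order of single features within an array is the same under any centring or rescaling of that array.

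**Figure D2:**
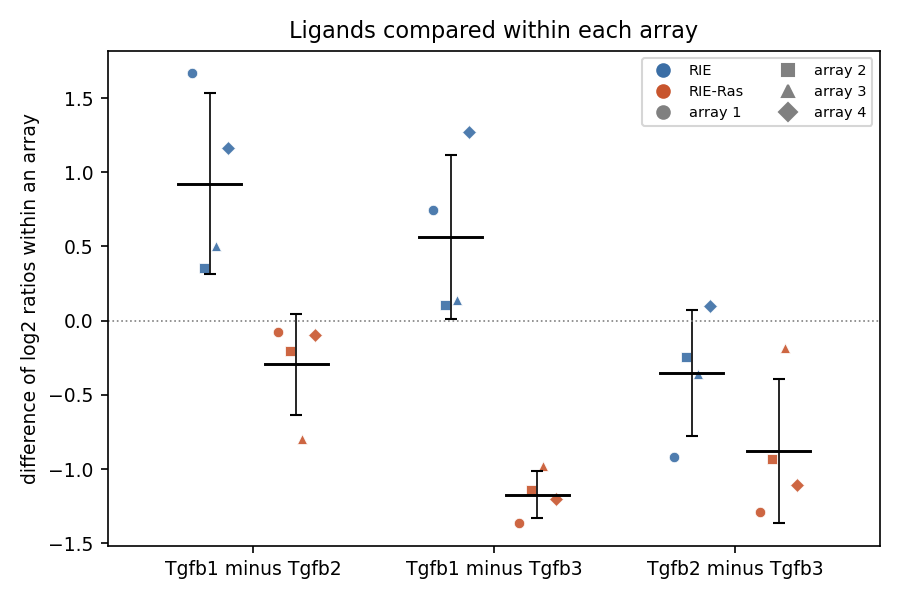
Difference between the log2 ratios of 2 ligand genes on the same array (vertical axis) for 3 pairs, with RIE arrays in blue, RIE-Ras arrays in orange, marker shape for the array number, bars at the mean and whiskers of 1 SD. Tgfb1 minus Tgfb3 lies above 0 on the 4 RIE arrays (mean 0.57) and near -1.17 on the RIE-Ras arrays.

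Among the signalling receptors, Tgfbr1, the type I TGF-beta receptor kinase, was above the median on every array of both lines. Its ratios were 1.07, 0.585, 0.47 and 0.76 in RIE cells and 0.62, 0.995, 0.16 and 0.01 in RIE-Ras cells, and the lines overlapped. The means were 0.72 ± 0.26 and 0.45 ± 0.45 (SD, n = 4 each), with limma adjusted p of 0.131 and 0.214. These are 1.65-fold and 1.36-fold ratios relative to the median feature. In RIE cells it passed with array weights (0.52, adjusted p = 0.00386) and without centring (1.08, adjusted p = 0.0177), and over all alternatives the adjusted p ran up to 0.432. In RIE-Ras cells it passed without centring only (0.73, adjusted p = 0.0284), and the mean was 0.27 without RIE-Ras replicate 2.

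Bmpr2, the type II BMP receptor kinase, rested on 4 features, of which 3 carry the same transcript accession in the annotation and 1 an expressed sequence tag. Averaged over them its ratios were -0.12, 0.18, -0.03 and 0.43 on the RIE arrays and 0.92, 0.66, 0.36 and 0.22 on the RIE-Ras arrays. All RIE-Ras values were above 0, and those of RIE-Ras replicates 3 and 4 lay within the RIE range. The means were 0.12 ± 0.25 and 0.54 ± 0.31 (SD, n = 4 each), with limma adjusted p of 0.711 and 0.107. The RIE-Ras mean was 0.41 without RIE-Ras replicate 1, and the gene passed there without centring (0.83, adjusted p = 0.0152). The RIE mean was 0.01 without RIE replicate 4 and 0.20 without RIE replicate 1.

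The 4 features of Bmpr2 did not give the same size of response. In RIE-Ras cells feature 9556 had a mean of 0.88 ± 0.53, feature 7363 of 0.64 ± 0.23, feature 18969 of 0.59 ± 0.53 and feature 17370 of 0.06 ± 0.21 (SD, n = 4). In RIE cells the same features had means of 0.21, 0.40, 0.12 and -0.27. Feature 7363 was above 0 on all 8 arrays, between 0.26 and 0.98, whereas feature 17370 was below 0 on all 4 RIE arrays. Fitted on their own among all 20500 features none of the 4 passed, with the smallest adjusted p at 0.054 for feature 7363 in RIE-Ras cells, where 0.502% of single features passed. In the difference between lines all 4 were higher in RIE-Ras cells, by 0.23 to 0.67, with adjusted p between 0.426 and 0.667. The features share RNA and arrays, so they are not replicates of the gene's response. None of the 4 separated the lines, where 4.99% of single features lay higher on every RIE-Ras array.

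**Figure D3:**
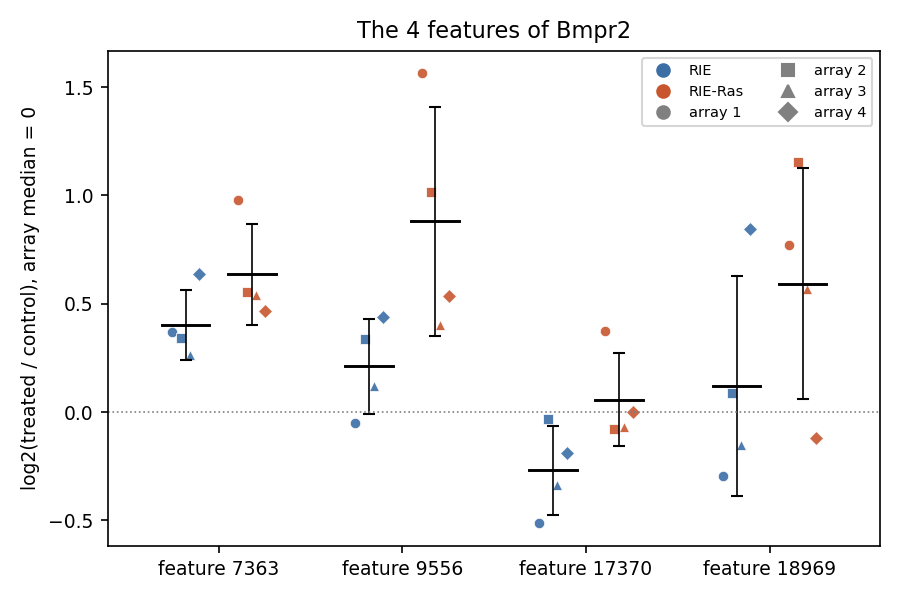
Log2 ratio of treated over control (vertical axis, array median at 0) for the 4 features annotated as Bmpr2, with RIE arrays in blue and RIE-Ras arrays in orange, marker shape for the array number, bars at the mean and whiskers of 1 SD. Feature 9556 reaches a mean of 0.88 in RIE-Ras cells and feature 17370 stays at 0.06.

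Bmpr1a, the type I BMP receptor kinase, had ratios of -0.44, 0.17, -0.07 and 0.60 in RIE cells and 0.46, 0.23, 0.10 and 0.38 in RIE-Ras cells. The RIE values spread over more than 1 log2 unit around 0, and the narrower RIE-Ras values lay within that range. The means were 0.07 ± 0.44 and 0.29 ± 0.16 (SD, n = 4 each), with limma adjusted p of 0.868 and 0.357. The RIE mean was -0.11 without RIE replicate 4 and 0.23 without RIE replicate 1.

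Neither co-receptor passed after centring on the array median with equal array weights. Tgfbr3, which presents ligand to the signalling receptors, had ratios of 0.00, 0.17, 0.16 and -0.10 in RIE cells and 0.57, 0.09, 0.02 and 0.21 in RIE-Ras cells, with means of 0.06 ± 0.13 and 0.22 ± 0.24 (SD, n = 4 each). Eng, best known from endothelial cells, had ratios of -0.05, 0.01, 0.32 and 0.57 in RIE cells and 0.30, 0.40, 0.20 and 0.12 in RIE-Ras cells, with means of 0.21 ± 0.29 and 0.26 ± 0.12. For both genes the lines overlapped, and the limma adjusted p lay between 0.304 and 0.836. Eng in RIE cells was 0.09 without RIE replicate 4, and it passed there with array weights (0.29, adjusted p = 0.00961) and without centring (0.57, 0.0328). Tgfbr3 in RIE-Ras cells was 0.11 without RIE-Ras replicate 1. Without centring Tgfbr3 passed in both lines (0.41 and 0.51, adjusted p = 0.0344 and 0.0196) and Eng in RIE-Ras cells (0.54, 0.0381).

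Across the 8 genes the signs were more uniform in RIE-Ras than in RIE cells. In RIE-Ras cells 6 of 8 genes, namely Tgfb3 and all 5 receptors and co-receptors, were above the array median on all 4 arrays, where 14.3% of all features were. Bmpr2 counts as an average, since feature 17370 was at -0.08 and -0.07 on RIE-Ras replicates 2 and 3 and feature 18969 at -0.12 on replicate 4. The genes share these arrays. Tgfbr1, at 0.01 on RIE-Ras replicate 4, and Tgfbr3, at 0.02 on RIE-Ras replicate 3, lay close to the array median. Tgfb1 was below it on all 4, where 14.1% of features were. In RIE cells 1 gene, Tgfbr1, was above the median on all 4 arrays (14.8% of features) and 1, Tgfb2, below it on all 4 (14.3%). The median of the 8 mean ratios was 0.27 in RIE-Ras and 0.09 in RIE cells, against 0.01 and -0.01 over all features. By mean ratio the order in RIE cells was Tgfbr1, Tgfb1, Eng, Bmpr2, Bmpr1a, Tgfbr3, Tgfb3 and Tgfb2. Of the neighbours in that order, only Tgfb1 and Tgfbr1 differed within arrays by more than the SD of that difference, at -0.43 ± 0.31 for Tgfb1 minus Tgfbr1. In RIE-Ras cells the order was Tgfb3, Bmpr2, Tgfbr1, Bmpr1a, Eng, Tgfbr3, Tgfb2 and Tgfb1. There only Tgfb3 minus Bmpr2, at 0.46 ± 0.34, exceeded its SD.

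The second question was whether the response differed between RIE-Ras and RIE cells. Both Tgfb2 and Tgfb3 were higher in RIE-Ras cells with no overlap of the arrays, Tgfb2 by 0.76 (95% interval 0.38 to 1.13) and Tgfb3 by 1.28 (0.62 to 1.94). These are ratios of the responses of 1.69-fold and 2.43-fold. Non-overlap with RIE-Ras higher was thus seen for 2 of 8 genes, where 5.0% of all features showed it, and it was seen for none with RIE-Ras lower (2.50% of features) or 2 of 8 in either direction (7.50%). Neither gene passed over all features by limma (adjusted p = 0.228 for Tgfb2 and 0.238 for Tgfb3), and nor did any of the other 6. No feature of the 17402 passed in this contrast (0%), 10.7% had an unadjusted p under 0.05, and with array weights 134 features passed, Tgfb2 and Tgfb3 among them (adjusted p = 0.0476 each). Those weights gave RIE replicate 3 a weight of 8.70 and no other array more than 1.10. By an exact two-sided permutation test over the 70 splits of the arrays each gene had p = 0.0286, the smallest the design allows, unadjusted for the 8 genes tested. Any gene without overlap between the lines has that p, so it adds nothing to the non-overlap. Leaving out each array in turn gave differences of 0.67 to 0.83 for Tgfb2 and 1.04 to 1.49 for Tgfb3, and without RIE-Ras replicate 1 they were 0.80 and 1.19.

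The other members did not separate the lines. Bmpr2 was higher in RIE-Ras cells by 0.42 (95% interval -0.04 to 0.89, adjusted p = 0.502 by limma). Bmpr1a differed by 0.23 (-0.29 to 0.74), Tgfbr3 by 0.17 (-0.21 to 0.54) and Eng by 0.04 (-0.36 to 0.44). Tgfbr1 differed by -0.27 (-0.83 to 0.29) and Tgfb1 by -0.46 (-1.08 to 0.16). Left-out arrays moved several of these: Tgfb1 was -0.19 and Bmpr1a 0.06 without RIE replicate 1, and Tgfbr1 was -0.13 without RIE-Ras replicate 4 and -0.46 without RIE-Ras replicate 2. Tgfbr3 was 0.05 without RIE-Ras replicate 1, and Bmpr1a was 0.41 without RIE replicate 4. Eng lay between -0.046 and 0.16 over the arrays left out. These intervals are too wide to show that the responses of those genes were alike. The exact permutation p of the 6 genes lay between 0.114 and 0.857.

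**Figure D4:**
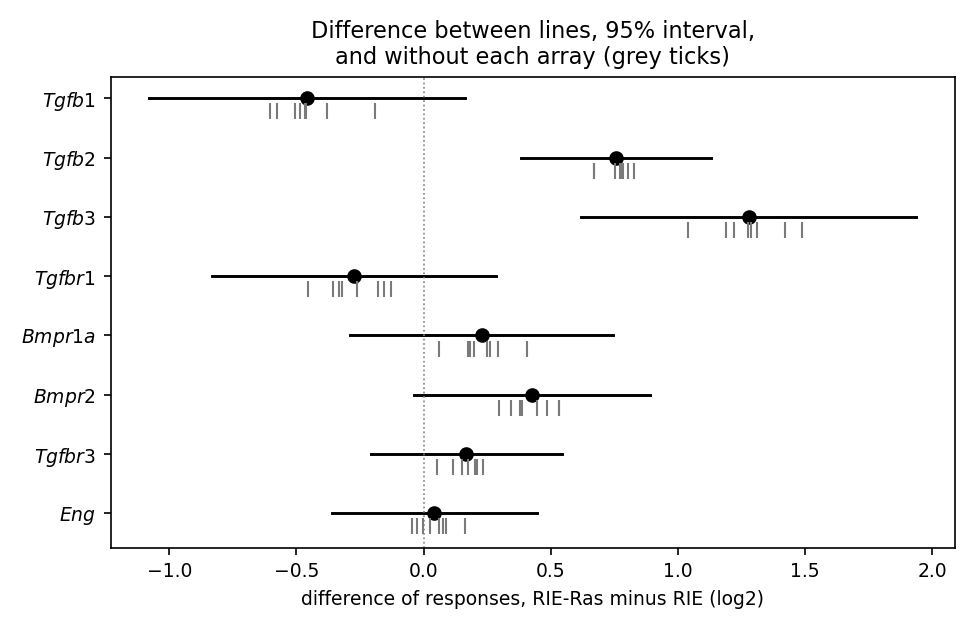
Difference of the mean log2 ratios, RIE-Ras minus RIE (horizontal axis), for each of the 8 genes, with the 95% interval of the limma fit as a line and the value without each array in turn as grey ticks. The intervals of Tgfb2 (0.38 to 1.13) and Tgfb3 (0.62 to 1.94) lie above 0 and those of the other 6 genes include it.

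The 2 ligand genes that differed most also varied together over the 8 arrays, with r = 0.82 for Tgfb2 and Tgfb3, a description that holds the difference between the lines within it. Among the 9651 other named genes, those with the highest r over the 8 arrays were listed for each member. These genes share arrays with the member and, where it has one, may share its gap between lines. The highest r among so many genes over 8 arrays are large by selection. For Tgfb2 the listed genes were Slc35c2 (0.98), Cmpk1 (0.98) and Nfib (0.98). For Tgfb3 they were Sbno1 (0.98), Mphosph10 (0.97) and Sox15 (0.97), all with smaller RIE-Ras means than Tgfb3, at 0.29, 0.39 and 0.32. For Tgfb1 they were Igsf6 (0.97), Abcb6 (0.97) and Grb7 (0.96), and for Tgfbr1 Gpr26 (0.96), Mfng (0.95) and Pak3 (0.94). For Bmpr2 they were Acbd5 (0.96), the BMP ligand gene Bmp4 (0.96) and Usp9x (0.96), and for Bmpr1a Wdr44, Sbno2 and Galnt7 (0.95 each). For Tgfbr3 they were Tppp (0.98), Chrm2 (0.96) and Naaladl1 (0.96), and for Eng Pdcl (0.97), Gnaz (0.95) and Hs3st5 (0.94).

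Of 18 other ligand genes measured none passed in either line or in the contrast, and their medians were -0.04 in RIE and -0.10 in RIE-Ras cells. For 1 of the 18, Bmp1, the lines did not overlap, a share near that over all features (5.0% with RIE-Ras higher, 7.50% in either direction). This gene encodes a procollagen proteinase rather than a signalling ligand. It stood at 0.16, -0.08, -0.22 and -0.43 in RIE cells and at 0.62, 0.50, 0.52 and 0.36 on the RIE-Ras arrays, and the difference was 0.64 ± 0.16 (SE, limma adjusted p = 0.267). Inhba, an activin subunit gene, was at 0.40 ± 0.15 in RIE cells and differed by -0.56 ± 0.21 (SE, limma adjusted p = 0.231 and 0.409). Inhbc, another such subunit gene, was at -0.34 in RIE cells, and Bmp15, an oocyte ligand gene, at -0.26 in RIE-Ras cells.

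Of 7 other receptor genes measured none passed either. Acvr2b, a type II activin receptor, was at -0.75, -0.14, -0.27 and -0.30 in RIE cells and at 0.72, 0.45, 0.38 and 0.05 in RIE-Ras cells, so that its sign was opposite on all arrays of the lines. Its difference was 0.77 ± 0.20 (SE, limma adjusted p = 0.273). It was the 1 gene of the 7 whose arrays did not overlap between lines, where 5.0% of all features lay higher on every RIE-Ras array. The share of features with opposite signs was not computed. The type I activin receptor gene Acvr1b was at 0.40 in RIE cells, and Acvr1c, a type I receptor gene of the activin and nodal branch, at 0.90 ± 0.34 (SE) in RIE-Ras cells, with limma adjusted p of 0.204 and 0.207. The difference of Acvr1c was 0.68 ± 0.48 (SE, limma adjusted p = 0.656).

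Downstream of the receptors, 1 of 8 Smad genes passed in each line, Smad7, which was higher. Of all features 0.0747% passed in RIE and 0.419% in RIE-Ras cells. Smad2, one of the receptor-activated Smads, had the smallest p in the contrast, with 0.34 ± 0.15 (SE, limma adjusted p = 0.475), followed by Smad7 with -0.41 ± 0.27 (adjusted p = 0.636). Medians of the Smad genes were 0.01 in RIE and 0.07 in RIE-Ras cells. Of 21 early target genes measured, 2 passed in RIE cells (Smad7 and Gadd45b) and 3 in RIE-Ras cells (Gadd45b, Tgif1 and Smad7), all higher, with list medians of 0.21 and 0.31. The shares of all features are those just given. Smad7 and Tgif1 are counted in other lists too, and the lists were chosen with earlier results of these data known. Gadd45b, a stress-response gene, stood at 1.67 and 2.36 in the 2 lines (limma adjusted p = 0.0493 and 0.00954). The calls in RIE and RIE-Ras cells were lost without the arrays, and under the settings, named above for Smad7. None passed in the contrast, where Tgif1 (0.57 ± 0.14, SE) and Myc (0.70 ± 0.20) had the smallest p, with limma adjusted p of 0.246 and 0.311. Of the 21 early target genes, 4 were higher in RIE-Ras cells with no overlap of the arrays and 1 was lower. Among the 8 Smad genes 1 was higher and none lower. Over all features these shares were 5.0% and 2.50%.

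Of 20 genes for latency, processing and activation of the ligands, 1 passed, Thbs1 in RIE-Ras cells, where 0.419% of all features passed. Thbs1 encodes thrombospondin 1, an activator of latent TGF-beta, and rose by 0.87 ± 0.13 (SE, n = 4, limma adjusted p = 0.0454). That call was lost without RIE-Ras replicate 2 or 3, with quantile normalization, with the line fitted alone and with the replicate block. It was not followed through the other alternatives. In RIE cells Thbs1 was at 0.44 and Ltbp1, which encodes a latent TGF-beta binding protein, at -0.53, with adjusted p of 0.168 and 0.148 by limma. In the contrast Fbn1 (fibrillin 1) and Itgb1 (integrin beta 1) had the smallest p, at 0.49 and 0.44. With no overlap of the arrays, 1 of the 20 genes was higher in RIE-Ras cells (5.0% of all features) and 1 lower (2.50%).

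Of 15 regulators of receptors and Smads 1 passed, Tgif1, a Smad co-repressor, which rose by 0.91 ± 0.10 (SE, limma adjusted p = 0.0293) in RIE-Ras cells. Of all features 0.419% passed there. The call of Tgif1 was also lost without RIE-Ras replicate 2 or 3 and under the other settings named for Thbs1. In RIE cells Tgif1 was at 0.34 and Fkbp1a, which binds the type I receptor, at -0.73, and in the contrast Cav1 (caveolin 1) was at 0.41. None of 9 ligand antagonists passed. The members with the smallest p were Chrd (chordin, -0.22) and Nbl1 (-0.31) in RIE cells, and A2m (0.42) and Sost (0.37) in RIE-Ras cells. In the contrast they were A2m (0.67) and Sostdc1 (-0.66). Arrays of the lines did not overlap for 1 of the 15 regulators, with RIE-Ras higher (5.0% of all features), and for none of the 9 antagonists.

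**Figure D5:**
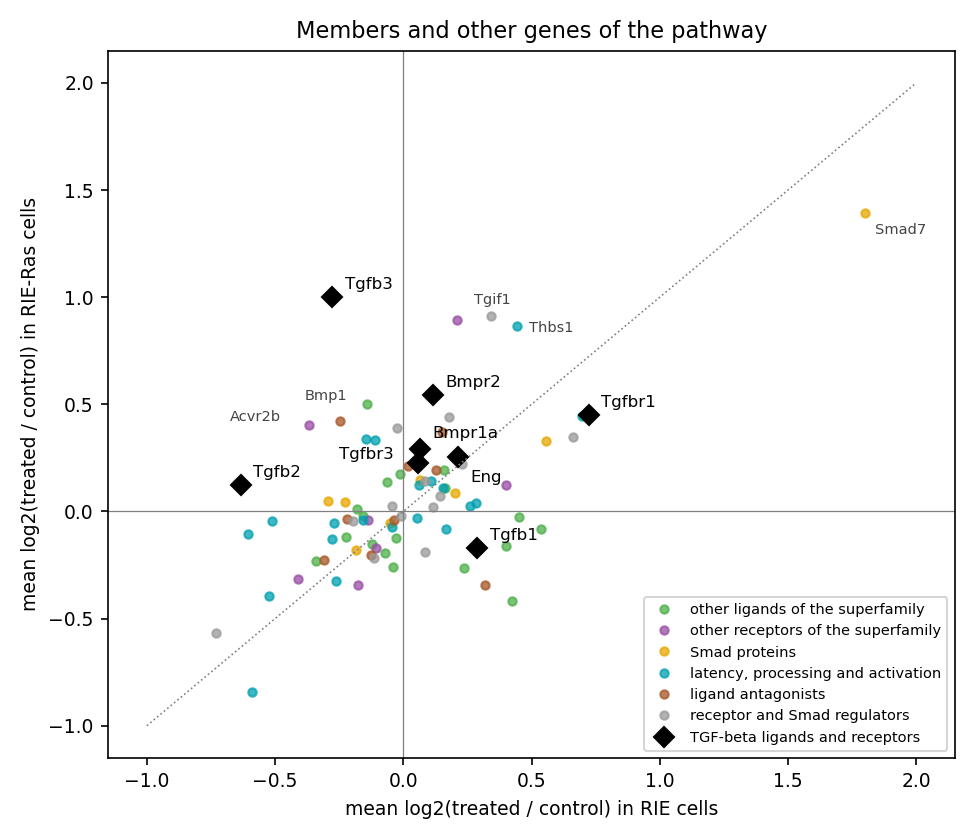
Mean log2 ratio of treated over control in RIE cells (horizontal axis) and in RIE-Ras cells (vertical axis) for the 8 members (black diamonds) and for genes of 6 other lists of the pathway (coloured dots), with a dotted line where the lines respond equally. Tgfb3 (-0.28 and 1.00) and Tgfb2 (-0.63 and 0.12) lie left of that line, and Smad7 is at 1.80 and 1.39. Early target genes are shown only where they also belong to one of the 6 lists.

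None of 10 epithelial, 12 mesenchymal and fibroblast and 7 immune marker genes passed in either line or in the contrast. Their medians lay between -0.01 and 0.10 in RIE and between -0.01 and 0.08 in RIE-Ras cells. The lowest mesenchymal values were Col1a2 at -1.71 in RIE and Vim at -1.34 in RIE-Ras cells, with S100a4 at -1.28 and -1.15, and limma adjusted p between 0.0611 and 0.080. The list went both ways, with 5 of the 12 genes above 0 in RIE and 7 in RIE-Ras cells. Its highest values were Dcn at 0.28 in RIE and Tagln at 0.35 in RIE-Ras cells. In the contrast Pdgfra (-0.59) and Tagln (0.67) had the smallest p, with limma adjusted p of 0.405 and 0.414. The part of these genes in the values of the ligands and receptors was not tested.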

How the data were processed

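RNA of treated and control cells was compared on 8 two-channel arrays, 4 per line. Per the labels, channel 1 held the control and channel 2 the treated RNA, and the deposited values are ratios of treated over control on a log2 scale; the log2 scale was found from the values, since the fold change in either direction is a whole multiple of 0.01 (tolerance 0.01 of that step) for 100% of values. How the authors corrected background, normalized, filtered spots or centred, and which dyes they used, was not given in the sources used here, and the labels name no dye swap. A dye effect of a feature is thus not separable from treatment within a line, and it cancels between lines if equal on all arrays.

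Features were named through the platform annotation, and older symbols were replaced from RefSeq's GRCr8 gene table, which gave 1 symbol to 12750 of 20500 features. Array medians were subtracted, and features with the same symbol were averaged, leaving 17402 features, 9652 of them named. All arrays were fitted together with limma 3.58.1 in R 4.3.3 (lmFit and eBayes, 6 residual and 2.71 prior degrees of freedom), with two-sided p-values adjusted by Benjamini-Hochberg over every feature and a threshold of 0.05. SD is over the 4 arrays of a line, and SE and intervals are those of the fit, whose spread both lines share. The fit was tested on simulated data, and the outcome of that test is not reported here. From each list of pathway genes the rule names members past the threshold, else the 2 with the smallest p in each comparison, and of the marker genes it takes the text names only some; similar genes are the 3 with the highest Pearson r. Alternatives were other scalings, single features, a filter on features at repeated fold values, array weights, robust eBayes, each line alone, a replicate block and leaving out each array. Members and lists were chosen with earlier results of these data known.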

Additional observations from a re-analysis of the deposited data

Results flagged for a closer look

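Tgfb2 and Tgfb3 were higher on all 4 RIE-Ras arrays than on all 4 RIE arrays, by 0.76 and 1.28 in the mean on the log2 scale. An exact permutation test of the difference gave p = 0.0286 each (unadjusted), which follows from that non-overlap with 4 arrays per line. Of all features 7.50% did not overlap in either direction. Neither gene passed over all features (limma adjusted p = 0.228 and 0.238). Within arrays, Tgfb1 minus Tgfb2 averaged 0.92 on the RIE and -0.29 on the RIE-Ras arrays, and Tgfb1 minus Tgfb3 averaged 0.57 and -1.17, with opposite signs on all arrays of the lines. Acvr2b, with a difference of 0.77, also had opposite signs on all arrays. The share of all features or pairs with such signs was not computed. The differences between lines of the 2 ligand pairs were not tested, and that of Acvr2b had an adjusted p of 0.273 by limma.

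In 96 sets of 4 arrays over the members, the features of Bmpr2 and the genes that the naming rule took from the pathway and marker lists, 5 had an array far from the other 3 (5.21%), and about 1 in 20 would do so by chance. In Smad7 it was RIE replicate 1 (2.59 against 1.45 to 1.61), as in Cdx2, an intestinal epithelial marker (-0.605 against -0.07 to 0.02). RIE-Ras replicate 1 was it for Smad7 (1.75 against 1.24 to 1.32), the leukocyte marker Ptprc (-3.49 against 0.42 to 1.07) and feature 7363 of Bmpr2 (0.98 against 0.47 to 0.55). All 5 thus fell on replicate 1 of a line, which the chance rate does not address, and the sets share arrays. RIE-Ras replicate 1 also held 1733 features at repeated fold values, against 301 to 658 on the other arrays. Whether these go together was not tested.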

How the results depend on the processing

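No member passed in the main setting, and none passed in any comparison with robust eBayes, single features, the filter on repeated fold values, the replicate block or any array left out, nor in either line fitted alone, a setting that gives no contrast. In RIE cells 4 members passed without centring (Tgfb1, Tgfbr1, Tgfbr3 and Eng) and 4 with array weights (Tgfb2, Tgfb3, Tgfbr1 and Eng), and 1, Tgfb2, with equal spread per array and with quantile normalization. In RIE-Ras cells 6 passed without centring, all but Tgfb1 and Bmpr1a, since the median feature then stood at 0.29 (0.35 in RIE cells). In the contrast 2 passed with array weights. Values that changed sign were Tgfb3 in RIE (0.079 without centring), Tgfb1 in RIE-Ras (0.11 without centring) and in RIE cells (-0.063 with array weights), Bmpr1a in RIE (-0.0092 with array weights, -0.11 to 0.23 over the arrays left out, lowest without RIE replicate 4), feature 17370 of Bmpr2 in RIE (-0.27) and Eng in the contrast (-0.030 without centring, -0.026 with array weights, and -0.046 to 0.16 over the arrays left out). Over all features 13, 73 and 0 passed in RIE, RIE-Ras and the contrast. In RIE cells the count was 4061 without centring, 87 with equal spread, 95 with quantile normalization, 6539 with array weights, 1 with the line alone and 0 to 30 without one array. In RIE-Ras cells it was 3657, 10 and 0 under the first 3, 0 with the line alone and 0 to 137 without one array, and in the contrast 1 without centring, 134 with array weights and 0 to 2 without one array. The cause was not tested. With the replicate number as a block 0 features passed in each comparison. The deviations of same-numbered arrays from their line's mean correlated between -0.054 and 0.065. These values do not settle whether same-numbered arrays share more than a number, which the labels do not say. The within-array differences of the ligands kept the sign of their mean, though not its size, under the scalings and arrays left out. These alternatives were chosen after seeing the data. For Tgfb1 minus Tgfb2 and Tgfb1 minus Tgfb3 the sign could not change, since each had the same sign on all 4 arrays of a line. The kept sign is thus no test of those 2 pairs.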
